A study of Mus musculus with 24 samples.

Results

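The genes described here encode splicing factors and RNA-binding proteins. They were chosen by a rule on symbols: every row of the deposited expression table whose symbol begins with the family names of SR proteins (Srsf), hnRNP proteins, snRNP and SF3 subunits, U2af, Tra2, Prpf, Luc7l, RNA-binding motif proteins (Rbm), DEAD- and DEAH-box helicases (Ddx, Dhx), or is a Clk kinase. The rule gave 9 of the 2372 genes in the table: Srsf5, Srsf1, Sf3a2, Prpf8, Luc7l2, Ddx39b, Ddx17, Rbm33 and Rbm12b2. The pattern matched 12 symbols, and 3 helicase genes were set aside by the rule, 1 of them Y-linked. All 9 passed the filter on low values (at least 1 FPKM in at least 3 libraries). No symbol that begins with Hnrnp, Snrp, U2af, Tra2 or Dhx, and no Clk kinase of the rule, was in the table used here, so these 9 are a small part of the splicing machinery.

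RNA was measured in whole livers of 24 mice, 12 females and 12 males, all fed the Lieber-DeCarli alcohol diet for 3 weeks, so that no group without alcohol is compared. Hairpin RNAs against chosen genes, or a control hairpin, were delivered by adeno-associated virus (AAV) in a pair of injections per mouse. The first was AAV-shControl or the pair AAV-shKdm5b and AAV-shKdm5c (the Kdm5 vectors), aimed at histone H3 lysine 4 demethylases. The second was AAV-shControl or AAV-shAhR (the AhR vector), aimed at the aryl hydrocarbon receptor. In each sex, 3 mice had control vectors in both injections, 3 the Kdm5 vectors with AAV-shControl, 3 AAV-shControl with the AhR vector, and 3 both sets. Each library came from its own mouse. The sources used here do not give strain, age, the promoter that drives the hairpins or the cell types that the vectors reach. The title of the study asks whether KDM5 demethylases act differently by sex in alcohol-associated liver disease, and each vector effect was therefore measured in each sex and then compared between the sexes.

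Introns are removed from pre-mRNA by the spliceosome, which is built from small nuclear ribonucleoproteins (snRNPs) that mark the start of the intron, the branch point and the catalytic centre. SR proteins bind exons and help to define them, and many of them also regulate their own transcripts through exons or introns that lead to decay. DEAD-box helicases remodel RNA and proteins during assembly and carry mRNA towards export. In liver, Srsf5 was cloned as an insulin-induced gene of regenerating tissue, and splicing factors take part in the response to feeding and injury.

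The values are FPKM, counts of fragments corrected for gene length and library size, so levels can be compared between genes but the read depth is unknown. Tests used log2(FPKM + 0.5) in limma over all 24 libraries, and adjusted p-values (Benjamini-Hochberg, threshold 0.05) run over the 2299 genes tested. A ± after FPKM is the SD of 3 mice, and after a log2 fold change its standard error. Of the targeted genes only Kdm5c could be followed. In males it ran from 6.39 to 7.81 FPKM without the Kdm5 vectors and from 4.64 to 5.89 with them, and its fall passed in mice that also had the AhR vector (log2 fold change -0.51 ± 0.11, limma adjusted p = 0.0124) but not with control vectors (-0.38 ± 0.11, adjusted p = 0.139). In females it ran from 9.32 to 13.07 FPKM without and from 9.05 to 12.46 with the Kdm5 vectors, and neither comparison passed (-0.09 ± 0.11, adjusted p = 0.66, with control vectors). Summed FPKM of 6 hepatocyte markers, such as Apob and Hnf4a, lay between 1.56e+04 and 2.39e+04 over all groups, lower in control females than in control males. No marker of any listed type in the table was at 0 in all mice of a group. Markers of B and T cells, neutrophils and dividing cells were not analysed here. The libraries are bulk liver, in which fewer cells of a type and less RNA per cell cannot be told apart.

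The windows before RefSeq starts of Srsf5, Sf3a2, Ddx39b and Ddx17 are shown because the first 3 genes passed in a vector comparison and Ddx17 varied most closely with other genes of the set. Each is the 250 bases before a RefSeq start in GRCm38.p6, read 5′ to 3′ on the gene's strand, with matches to 8 searched motifs on either strand in capitals. The motifs were the E-box CACGTG, the core GCGTG bound by the AhR complex, the CRE core TGACGT, the Sp1 box GGGCGG, the ETS site CCGGAAG, the box CCAAT bound by NF-Y, the TATA box TATAAA and the YY1 site AAGATGG. Distances run from the first printed base of a match to the start.
Srsf5, chr12:80945249-80945498 (+): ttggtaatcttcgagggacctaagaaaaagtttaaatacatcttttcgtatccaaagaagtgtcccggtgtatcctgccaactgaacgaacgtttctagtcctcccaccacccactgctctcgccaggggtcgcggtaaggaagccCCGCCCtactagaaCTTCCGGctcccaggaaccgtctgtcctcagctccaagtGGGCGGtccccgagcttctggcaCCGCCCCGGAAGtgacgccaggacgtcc
Sf3a2, chr10:80798485-80798734 (+): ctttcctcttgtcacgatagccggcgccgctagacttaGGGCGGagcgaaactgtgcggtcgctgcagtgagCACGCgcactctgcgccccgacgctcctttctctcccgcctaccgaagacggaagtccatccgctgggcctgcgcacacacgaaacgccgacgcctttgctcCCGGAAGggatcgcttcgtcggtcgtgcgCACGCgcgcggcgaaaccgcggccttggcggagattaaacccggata
Ddx39b, chr17:35241496-35241745 (+): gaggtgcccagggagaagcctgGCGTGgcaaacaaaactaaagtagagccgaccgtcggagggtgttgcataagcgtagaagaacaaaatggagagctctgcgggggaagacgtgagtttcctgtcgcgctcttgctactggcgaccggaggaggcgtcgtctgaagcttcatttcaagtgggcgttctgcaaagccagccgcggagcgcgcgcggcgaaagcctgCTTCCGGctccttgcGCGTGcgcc
Ddx17, chr15:79546742-79546991 (-): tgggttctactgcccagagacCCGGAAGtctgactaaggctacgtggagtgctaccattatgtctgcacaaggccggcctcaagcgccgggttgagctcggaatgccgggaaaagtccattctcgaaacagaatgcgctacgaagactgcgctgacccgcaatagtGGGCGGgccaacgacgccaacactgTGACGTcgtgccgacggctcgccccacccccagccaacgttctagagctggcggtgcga
The Srsf5 window held 3 Sp1 boxes, at 104, 51 and 28 bases before the start, and 2 ETS sites, at 90 and 23 bases, with the nearest Sp1 box and ETS site sharing 1 base. No GCGTG core was in it. The Sf3a2 window held 2 GCGTG cores, at 178 and 47 bases, an Sp1 box at 212 and an ETS site at 76. GENCODE places the start of Sf3a2 at 80798198, so in that annotation this window lies inside the gene. The Ddx39b window held 2 GCGTG cores, at 228 and 9 bases before the start, and an ETS site at 24 bases. The Ddx17 window held a CRE core at 59 bases, an Sp1 box at 84 and an ETS site at 229, and a second RefSeq window of Ddx17, not printed, held a GCGTG core at 229 and a TATA box at 126. Over all 32851 RefSeq windows of this length, 32.7% held an Sp1 box, 6.91% an ETS site, 28.2% a GCGTG core, 6.47% a CRE core and 12.4% a TATA box, and a match is a match of letters only. The printed windows had a GC content of 56.8%, 65.2%, 60.8% and 60.8%, against a median of 52.4% over all windows. RefSeq windows were found for 8 of the 9 genes.

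Srsf5 was the most abundant of the 9 genes, with a mean of 65.6 FPKM over all libraries, above 73.3% of the genes in the table. Prpf8 (31.6 FPKM), Ddx39b (31.2) and Ddx17 (27.4) followed, then Luc7l2 (17.3), Sf3a2 (14.6) and Srsf1 (12.3). Rbm33 (3.73) and Rbm12b2 (1.01) were low, and Rbm12b2 was under 1 FPKM in 13 of 24 libraries. In this order, the ranges over libraries of neighbouring genes overlapped except between Srsf5 and Prpf8, between Srsf1 and Rbm33, and between Rbm33 and Rbm12b2.

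Srsf5, an SR protein gene (chromosome 12, 80945504 to 80950507 of GRCm38, plus strand), had the largest vector difference of the 9 genes. In females with control vectors it measured 109.34, 104.53 and 91.46 FPKM, a mean of 102 ± 9.25. With the Kdm5 vectors it measured 44.13, 51.86 and 59.37 FPKM (51.8 ± 7.62). All 3 females with control vectors lay above each of the other 21 libraries, of both sexes. Srsf5 fell 1.96-fold with the Kdm5 vectors in females, a log2 fold change of -0.97 ± 0.18 with a 95% confidence interval from -1.35 to -0.60 (limma adjusted p = 0.00651). It kept its call in each of the 6 fits without 1 library, but not with the compared groups alone (adjusted p = 0.0603). In males the control vectors gave 66.16, 57.42 and 49.69 FPKM (57.8 ± 8.24) and the Kdm5 vectors 71.90, 62.76 and 64.18 FPKM (66.3 ± 4.92). These ranges overlapped, and the male difference of 0.20 ± 0.18 did not pass (adjusted p = 0.834). The effect of the Kdm5 vectors differed between the sexes, with a log2 difference of -1.18 ± 0.25 for females minus males (interval -1.71 to -0.65, limma adjusted p = 0.0291). That difference lost its call in 6 of 12 fits without 1 library, which were those without male control mouse 3, male Kdm5 mouse 1 or 3, female control mouse 1, or female Kdm5 mouse 1 or 2, with values from -1.28 to -1.07 and adjusted p up to 0.0801.

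With the AhR vector alone, females had 45.99, 64.08 and 66.18 FPKM of Srsf5 (58.8 ± 11.1), all under the control females. The log2 fold change of -0.80 ± 0.18 did not pass (limma adjusted p = 0.053), with an interval from -1.17 to -0.43. It passed with median-of-ratios scaling (-0.79, adjusted p = 0.0451) and with library weights (-0.93, adjusted p = 0.0386). In males the AhR vector gave 62.37, 50.81 and 76.56 FPKM (63.2 ± 12.9), a difference of 0.12 ± 0.18 from control vectors (adjusted p = 0.825). The AhR effect in females minus that in males was -0.92 ± 0.25 and did not pass (adjusted p = 0.104).

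Females that received both sets of vectors had 78.38, 53.85 and 82.96 FPKM of Srsf5 (71.7 ± 15.7), all under the control females and overlapping those with a single set. The difference from control vectors was -0.52 ± 0.18 (limma adjusted p = 0.0573), and it passed with median-of-ratios scaling (adjusted p = 0.0445) and library weights (adjusted p = 0.0169). The departure from the sum of the single effects passed: the interaction of both vectors in females was 1.25 ± 0.25 on the log2 scale (interval 0.73 to 1.78, limma adjusted p = 0.0223). It lost its call in 5 of 12 fits without 1 library (female control mouse 1, AhR mouse 1, Kdm5 mouse 1, or mouse 1 or 3 with both sets), with values from 1.09 to 1.45 and adjusted p up to 0.0955, and with the compared groups alone (adjusted p = 0.149). Males with both sets had 61.82, 50.76 and 47.27 FPKM (53.3 ± 7.6), and their interaction of -0.44 ± 0.25 did not pass (adjusted p = 0.547). The interaction, both single effects and the sex difference in females all rest on the same 3 control females, so these results are not independent of each other.

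**Figure D1:**
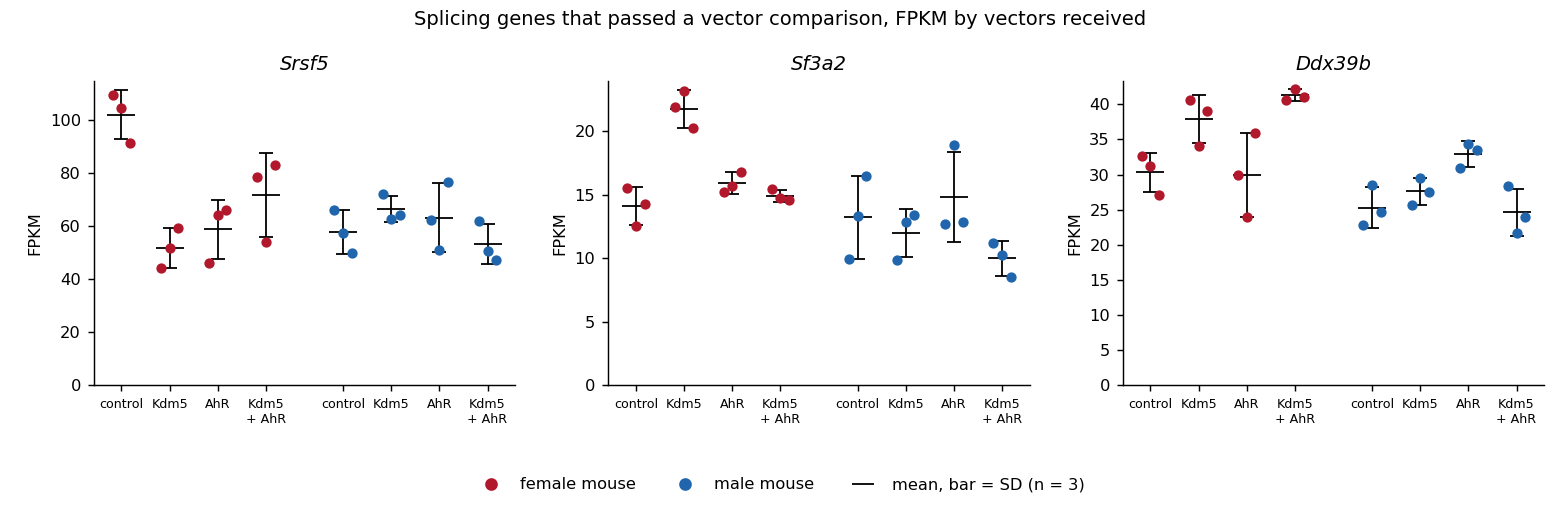
FPKM of Srsf5, Sf3a2 and Ddx39b (vertical axes from 0) in each mouse by the vectors received, females in red and males in blue, with the mean and SD of 3 mice as black lines. The 3 Srsf5 values of control females (91.46 to 109.34) lie above every other mouse, the 3 Sf3a2 values of females with the Kdm5 vectors (20.21 to 23.17) above every other mouse, and Ddx39b is highest in females with both sets of vectors (40.58 to 42.24).

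With the Kdm5 vectors in females, 2 of 7 tested markers of sinusoidal endothelium passed, where 6.87% of all genes tested were called. The endothelial genes Gpr182 (0.62 ± 0.16, limma adjusted p = 0.0262) and Lyve1 (0.75 ± 0.20, adjusted p = 0.0336) rose. The summed FPKM of the 7 ran from 84.5 to 100 in control females and from 106 to 108 with the Kdm5 vectors, and that of 5 stellate markers from 119 to 132 and from 139 to 158. The 7 Kupffer markers summed to 414 to 458 and 385 to 428, with none passing. Hspa1b, an inducible heat shock protein gene, measured 1.42 to 1.94 FPKM in control females and 2.73 to 5.70 with the Kdm5 vectors, a difference that did not pass (1.04 ± 0.34, limma adjusted p = 0.0655). None of the 6 tested heat shock and immediate early genes passed there, and their median was 0.43 against -0.02 over all genes. Within groups, Srsf5 and Hspa1b deviated in opposite directions (Pearson r = -0.66, Spearman rho = -0.58 over 24 libraries, given as a description). Hspa1b was picked as the most negative of its list, and its r was not computed again without the farthest libraries. The others had r = -0.44 (Hsp90aa1), -0.44 (Hspb1), -0.28 (Egr1), -0.20 (Dnaja1) and 0.28 (Junb). The part of these markers and heat shock genes in the Srsf5 values was not tested.

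Srsf1, the other SR protein gene in the table (chromosome 11, 88047373 to 88053755, plus strand), passed in no vector comparison. Control females had 12.14, 12.46 and 14.42 FPKM and females with the Kdm5 vectors 15.50, 12.70 and 14.17. The difference was 0.11 ± 0.13 with an interval from -0.16 to 0.38 (limma adjusted p = 0.648), which leaves out a change of the size seen for Srsf5. Its largest vector difference was in males, where adding the AhR vector to the Kdm5 vectors gave 9.11, 8.46 and 9.28 FPKM against 11.58, 11.22 and 12.29 without it. These groups did not overlap, and the difference of -0.37 ± 0.13 did not pass (adjusted p = 0.158).

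Sf3a2 encodes a subunit of SF3a, the part of the U2 snRNP that helps it to bind the branch point (chromosome 10, 80798198 to 80804924, plus strand). Females with control vectors had 15.53, 12.51 and 14.22 FPKM (14.1 ± 1.51) and those with the Kdm5 vectors 21.84, 23.17 and 20.21 FPKM (21.7 ± 1.48). The 3 values with the Kdm5 vectors were the highest of all 24 libraries. Sf3a2 rose 1.53-fold, a log2 fold change of 0.61 ± 0.17 (interval 0.26 to 0.96, limma adjusted p = 0.0336). The call was lost in each of the 6 fits without 1 library (0.53 to 0.68, adjusted p up to 0.108) and when the compared groups were fitted alone (adjusted p = 0.0804).

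Females with both sets of vectors had 15.43, 14.75 and 14.58 FPKM of Sf3a2 (14.9 ± 0.45), within the range of the control females. All 3 lay under the females with the Kdm5 vectors alone, and the difference of -0.53 ± 0.17 did not pass (limma adjusted p = 0.0913). Females with the AhR vector alone had 15.16, 15.63 and 16.80 FPKM. In males the control vectors gave 9.92, 13.32 and 16.48 FPKM and the Kdm5 vectors 9.85, 12.85 and 13.35, a difference of -0.12 ± 0.17 (adjusted p = 0.918). The Kdm5 effect in females minus that in males was 0.73 ± 0.24 and did not pass (adjusted p = 0.115), although it did without male control mouse 1 (0.91, adjusted p = 0.0289). Exons of Sf3a2 share 429 bases, 16.1% of its exon bases, with Plekhj1 on the other strand, and the strand of the libraries is not stated, so reads of the 2 genes cannot be told apart there.

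Prpf8 encodes the large U5 snRNP protein that scaffolds the catalytic centre (chromosome 11, 75486816 to 75509449, plus strand). It varied least of the 9 genes, from 24.32 to 41.04 FPKM. Control females had 31.04, 30.33 and 37.56 FPKM, and females with both sets of vectors 35.89, 41.04 and 39.68. These ranges overlapped at 1 control female, and the difference of 0.24 ± 0.09 did not pass (limma adjusted p = 0.0783). It passed with library weights (0.26, adjusted p = 0.0218) and without female control mouse 3 (0.33, adjusted p = 0.0274). Males with both sets had 26.03, 24.32 and 24.68 FPKM against 30.14, 28.65 and 25.87 with control vectors (-0.17 ± 0.09, adjusted p = 0.393).

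Luc7l2 encodes a U1 snRNP-associated protein that influences the choice of 5′ splice sites (chromosome 6, 38551334 to 38609470, plus strand). Males with control vectors had 13.14, 12.73 and 12.34 FPKM and males with the Kdm5 vectors 17.31, 16.50 and 19.17. The ranges did not overlap, but the difference of 0.45 ± 0.16 did not pass (limma adjusted p = 0.266). Males with the AhR vector had 16.02, 13.60 and 22.01 FPKM (0.39 ± 0.16, adjusted p = 0.247), and those with both sets 16.41, 12.78 and 12.95, overlapping the control males. In females the 4 groups had means of 17.7, 16.7, 21.1 and 20.9 FPKM with control, Kdm5, AhR and both sets of vectors, and no comparison passed. A lincRNA on the other strand, Gm26699, covers 18.9% of its exon bases.

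Ddx39b encodes a DEAD-box helicase (also called UAP56) that acts in spliceosome assembly and in the TREX mRNA export complex (chromosome 17, 35241746 to 35253707, plus strand). Control females had 32.58, 31.19 and 27.15 FPKM (30.3 ± 2.82), and females with both sets of vectors 40.58, 42.24 and 41.08 FPKM (41.3 ± 0.852). The ranges did not overlap, and Ddx39b rose 1.36-fold, a log2 fold change of 0.44 ± 0.13 (interval 0.18 to 0.71, limma adjusted p = 0.0336). The call was lost in 5 of 6 fits without 1 library, all but that without control mouse 2 (0.37 to 0.50, adjusted p up to 0.0949), and with the compared groups alone (adjusted p = 0.0679). Females with the Kdm5 vectors alone had 40.57, 34.08 and 39.06 FPKM, also above all control females (0.32 ± 0.13, adjusted p = 0.134), and those with the AhR vector alone 29.98, 23.93 and 35.90 FPKM. In males the highest group was the AhR vector alone, with 30.86, 34.37 and 33.53 FPKM against 22.76, 28.44 and 24.67 with control vectors (0.38 ± 0.13, adjusted p = 0.161). Males with both sets had 28.35, 21.64 and 23.92 FPKM, all under the males with the AhR vector alone (-0.42 ± 0.13, adjusted p = 0.0804). That difference passed with library weights (-0.42, adjusted p = 0.0215) and without mouse 1 of the males with both sets (-0.52, adjusted p = 0.0493). In the female comparison of both sets with control vectors, the summed stellate markers ran from 154 to 175 FPKM against 119 to 132, with Dcn and Pdgfra passing (2 of 5), and the sinusoidal markers from 107 to 122 against 84.5 to 100, with 1 of 7 passing. Of 12 circadian clock genes tested, 4 rose and 3 fell in that comparison, where 11.6% of all genes tested were called. Their part in the Ddx39b values was not tested.

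Ddx17 encodes a DEAD-box helicase that takes part in alternative splicing, microRNA processing and transcription (chromosome 15, 79527736 to 79546741, minus strand). Males with control vectors had 20.60, 19.98 and 22.66 FPKM, those with the Kdm5 vectors 26.83, 28.05 and 24.54, those with the AhR vector 24.69, 22.16 and 33.45, and those with both sets 21.89, 16.93 and 18.45. The single sets gave differences of 0.32 ± 0.17 each from control vectors, and neither passed (limma adjusted p = 0.58 and 0.412). The interaction in males was -0.78 ± 0.24 and did not pass (adjusted p = 0.111), though it did with library weights (-0.76, adjusted p = 0.0343). In females the means were 29, 29.2, 34.7 and 33.4 FPKM with control, Kdm5, AhR and both sets.

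Rbm33 encodes an RNA-binding protein that partners the RNA demethylase ALKBH5 (chromosome 5, 28317121 to 28419239, plus strand). In males the control vectors gave 2.92, 2.68 and 2.45 FPKM and the Kdm5 vectors 3.71, 4.39 and 4.17, without overlap (0.53 ± 0.17, limma adjusted p = 0.207). In females the control vectors gave 4.25, 3.23 and 4.06 FPKM and the Kdm5 vectors 3.25, 2.96 and 2.72 (-0.32 ± 0.17, adjusted p = 0.269). The difference between these effects, -0.84 ± 0.24 for females minus males, did not pass (adjusted p = 0.0757), and it passed with library weights (-0.88, adjusted p = 0.0285) and without female control mouse 2 (-0.95, adjusted p = 0.0481).

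Rbm12b2 (chromosome 4, 12089439 to 12096243, plus strand) encodes a protein with RNA recognition motifs and was the lowest of the set. Its values ran from 0.61 to 1.96 FPKM in females and from 0.31 to 1.26 in males. Of the 100-base windows in its transcripts, 48.1% also occur in its neighbour copy Rbm12b1, which makes the counting of its reads uncertain. Its largest vector difference, Kdm5 vectors added to the AhR vector in males (0.50, 0.73 and 0.31 FPKM against 1.00, 1.26 and 0.97), did not pass (-0.65 ± 0.24, limma adjusted p = 0.148).

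**Figure D2:**
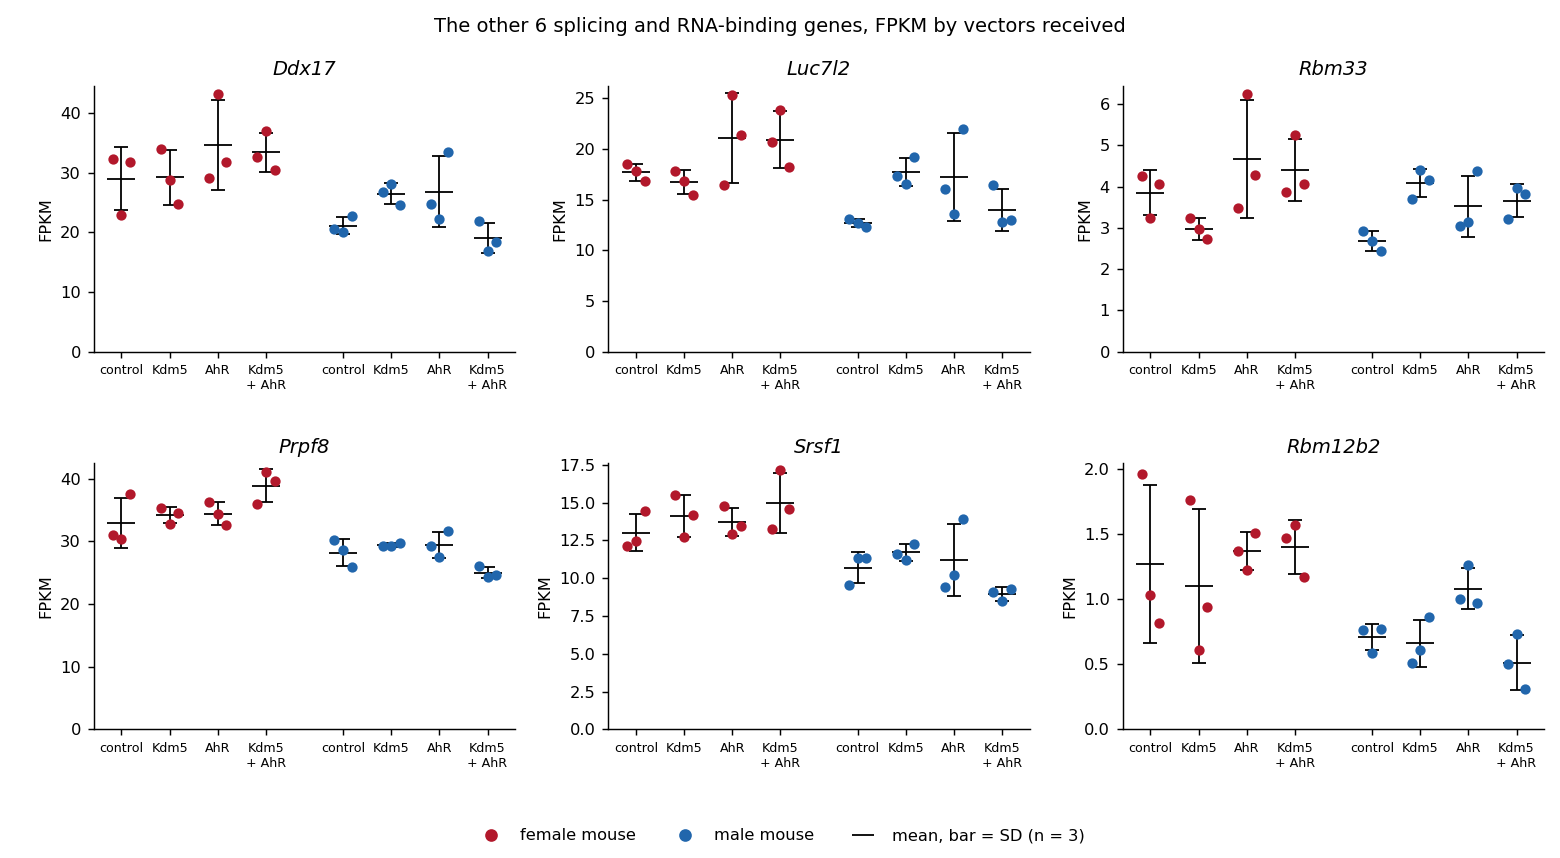
FPKM of the other 6 genes (vertical axes from 0) in each mouse by the vectors received, females in red and males in blue, with the mean and SD of 3 mice as black lines. In males, Ddx17, Luc7l2 and Rbm33 with the Kdm5 vectors lie above the control mice without overlap, and Ddx17, Luc7l2, Prpf8 and Srsf1 with both sets lie under the males with the Kdm5 vectors alone.

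Few of the 9 genes passed in any vector comparison. With the Kdm5 vectors in females 1 gene was called higher (Sf3a2) and 1 lower (Srsf5), against 6.87% of all genes tested that were called in limma. The Sf3a2 call was lost in each of the 6 fits without 1 library. In males none of the 9 was called, against 1.22% of all genes, and 2 of the 9 had an unadjusted p under 0.05 against 9.92% of all genes. The AhR vector gave no call among the 9 in females, where 0.217% of all genes were called, and 1 of the 9 had an unadjusted p under 0.05 against 12.9%. It gave none in males either, where 1.09% were called, and 2 of the 9 had an unadjusted p under 0.05 against 13.9%. With both sets in females 1 gene was called higher (Ddx39b, a call lost in 5 of 6 fits without 1 library), against 11.6% of all genes called. Both sets in males gave no call among the 9, against 2.35% of all genes, with 2 of the 9 unadjusted against 14.7%. With 9 genes, counts of 1 or 2 give no basis for setting them apart from the table.

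Where a second set was added to the first, none of the 9 was called in limma. For the Kdm5 vectors added to the AhR vector in females, 0.696% of all genes were called, and 1 of the 9 against 15.4% of all genes had an unadjusted p under 0.05. In males 3.26% were called, and 6 of the 9 against 16.3% had an unadjusted p under 0.05. For the AhR vector added to the Kdm5 vectors, 2.09% were called in females and 0.913% in males. Here 3 of the 9 had an unadjusted p under 0.05 in each sex, against 21.6% and 16.5% of all genes.

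The Kdm5 effect differed between the sexes for 1 of the 9 (Srsf5, lower in females), against 1.74% of all genes. The AhR effect did so for 0 of the 9, against 0.565% of all genes, with 2 of the 9 at an unadjusted p under 0.05 in limma against 13.8%. The interaction of both vectors passed for 1 of the 9 in females (Srsf5), against 0.609% of all genes. In males it passed for 0 of the 9, against 1.61%, and 5 of the 9 had an unadjusted p under 0.05 against 12.8% of all genes.

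**Figure D3:**
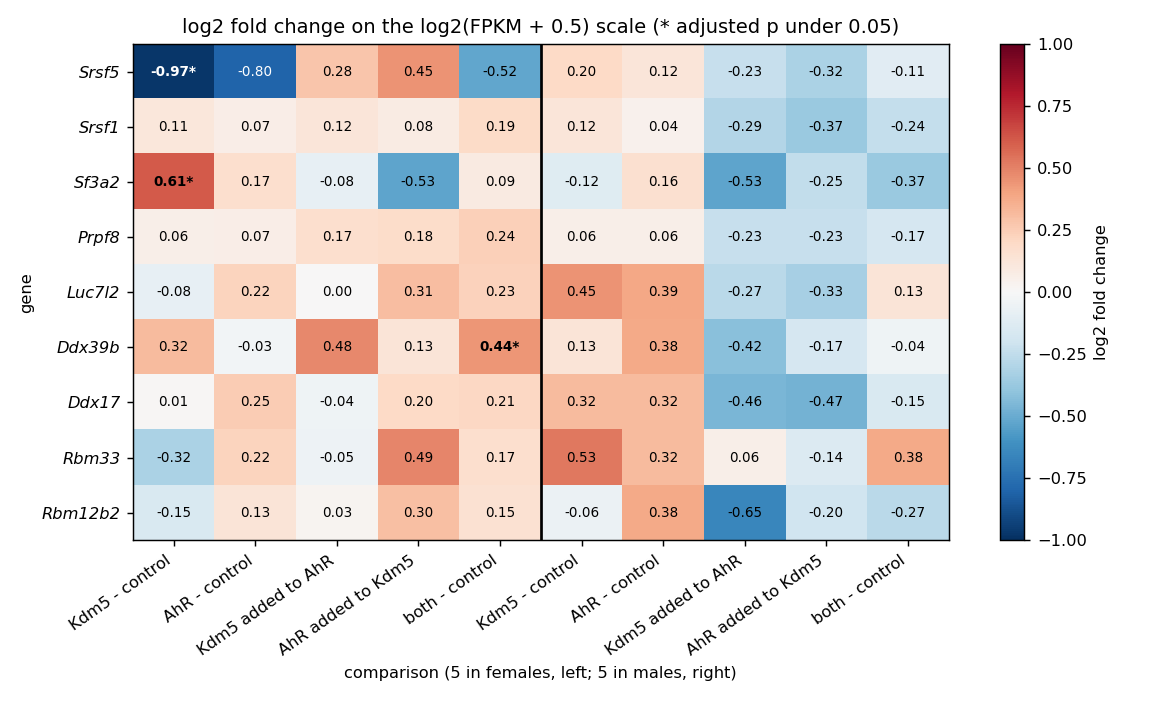
log2 fold change on the log2(FPKM + 0.5) scale of the 9 genes (rows) in 5 comparisons in females (left) and the same 5 in males (right), red above and blue under 0, with an asterisk where the adjusted p is under 0.05. The passing values are -0.97 for Srsf5 and 0.61 for Sf3a2 with the Kdm5 vectors and 0.44 for Ddx39b with both sets, all in females, and the 9 values in males are all under 0 where the AhR vector was added to the Kdm5 vectors.

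In males the 9 genes took the same side in several comparisons although none passed. Females had 8 of 9 on the same side in some comparisons, given below. Without overlap between groups, 3 of the 9 (Ddx17, Luc7l2 and Rbm33) were above the control males with the Kdm5 vectors, where 15.1% of all genes in the table did not overlap. With the AhR vector alone 4 of the 9 were above the control males, where 16.7% did not overlap. Under the males with the Kdm5 vectors alone were 5 of the 9 with both sets (Ddx17, Luc7l2, Prpf8, Srsf1 and Srsf5), where 27.4% did not overlap. Under the males with the AhR vector alone were 6 of the 9 with both sets, where 23.4% did not overlap. Against the control males, both sets had 1 gene above (Rbm33) and 1 under (Srsf1), where 20.7% did not overlap. In males with the AhR vector alone all 9 log2 fold changes were above 0, with a median of 0.32 against 0.07 over all genes. With median-of-ratios scaling 7 were above 0 with a median of 0.24. Male AhR mouse 3 was the highest of its group for Ddx17 (33.45 FPKM), Luc7l2 (22.01), Rbm33 (4.38), Srsf1 (13.94), Srsf5 (76.56) and Prpf8 (31.65). For Ddx39b, Sf3a2 and Rbm12b2 another mouse was highest. Mice 1 and 2 had 9.43 and 10.21 FPKM of Srsf1, against a control mean of 10.7. The counts of genes above 0 are not given without mouse 3. When the AhR vector was added to the Kdm5 vectors all 9 were under 0, with a median of -0.25 against -0.01 over all genes, and -0.25 with the other scaling. When the Kdm5 vectors were added to the AhR vector 8 of 9 were under 0, all but Rbm33, with a median of -0.29 against -0.08. The interaction was under 0 for all 9, from -0.29 for Prpf8 to -0.78 for Ddx17, with a median of -0.47 against -0.08 over all genes (-0.40 with the other scaling). In females the interaction was above 0 for 7 of 9, with a median of 0.11 against 0.07. When the AhR vector was added to the Kdm5 vectors in females, 8 of 9 were above 0, all but Sf3a2 (median 0.20 against 0.05). Without overlap, 4 of the 9 were above and 1 under there, where 27.1% of all genes did not overlap. With both sets against control vectors in females, 8 of 9 were above 0, all but Srsf5 (median 0.19 against 0.02). These comparisons share mice, and in males the interaction rests on the 4 groups of 3 mice already named, so they are given side by side and not as separate evidence.

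Other splicing genes, matched by symbol from longer lists, were scarce in the table: 2 of 83 spliceosome proteins, 10 of 77 other splicing regulators and RNA-binding proteins, 1 of 18 kinases and phosphatases of SR proteins, and 1 of 43 genes of exon junctions, mRNA decay, 3′ ends and export. With the Kdm5 vectors in females none of these 14 passed, and the 10 regulators had a median of 0.12. With both sets in females, 3 of the 10 regulators rose, beside 11.6% of all genes called in either direction, with a median of 0.30 against 0.02 over all genes. They were Son, a scaffold of nuclear speckles (0.42 ± 0.10, limma adjusted p = 0.0188), Ewsr1 of the FET family (0.32 ± 0.09, adjusted p = 0.0335) and the exon-choice regulator Rbfox2 (0.43 ± 0.13, adjusted p = 0.0336). Snrnp200, the U5 helicase that unwinds the snRNAs and a partner of Prpf8, rose from 12.11, 11.86 and 14.50 FPKM to 16.22, 18.13 and 17.07 without overlap (0.41 ± 0.09, adjusted p = 0.00944). Lsm4, the other of the 2 spliceosome proteins, had 13.37, 12.16 and 16.21 FPKM in control females. With both sets it had 14.55, 15.24 and 14.19, within the control range.

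Averaged over the 4 vector settings, all 9 genes had a log2 difference above 0 for females against males, and 7 passed, against 62.3% of all genes tested that passed in either direction, so that most of the table differs by sex. Their log2 differences ran from 0.31 ± 0.08 for Luc7l2 (limma adjusted p = 0.00184) to 0.52 ± 0.12 for Rbm12b2 (adjusted p = 6.1e-04), with Prpf8 at 0.32 ± 0.04 (adjusted p = 2.6e-06), Srsf1 at 0.38 ± 0.06 (adjusted p = 2.9e-05), Ddx17 at 0.43 ± 0.08 (adjusted p = 1.4e-04), Ddx39b at 0.32 ± 0.06 (adjusted p = 1.6e-04) and Sf3a2 at 0.41 ± 0.08 (adjusted p = 2.2e-04). Prpf8 spanned 30.33 to 41.04 FPKM in females and 24.32 to 31.65 in males. Rbm33 (0.15 ± 0.09, adjusted p = 0.124) and Srsf5 (0.19 ± 0.09, adjusted p = 0.0702) did not pass. Srsf5 passed in 6 of the 24 fits without 1 library (adjusted p from 0.0172 to 0.0466), and Rbm33 without female AhR mouse 1 (0.20, adjusted p = 0.0409). The median of the 9 was 0.32 against 0.08 over all genes. Median-of-ratios scaling, which lowered the median over all genes by 0.12, gave 0.20 for the 9, with all 9 still above 0 and the same number passing. The 10 other regulators were likewise all higher in females and all passed, with a median of 0.40.

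With control vectors alone the list of passing genes differed in part, with Luc7l2 and Ddx17 on both lists. Standard errors were larger there, as for Ddx17 with 0.17 against 0.08 over the 4 settings. Srsf5 (0.82 ± 0.18, limma adjusted p = 0.0011), Luc7l2 (0.46 ± 0.16, adjusted p = 0.0242), Rbm33 (0.44 ± 0.17, adjusted p = 0.0416) and Ddx17 (0.44 ± 0.17, adjusted p = 0.0429) were higher in females, 4 of 9 with 0 lower. Over all 2299 genes tested, 709 were called higher and 267 lower in females, 42.5% in either direction. With 9 genes, these counts give no basis for setting them apart from the table. With median-of-ratios scaling, which lowered the median over all genes here by 0.15, Srsf5 alone of the 9 passed (0.66, adjusted p = 0.00402), and 8 of 9 stayed above 0. Without 1 library Srsf5 passed in all 6 fits, while Ddx17 lost its call in 5 (all but that without female control mouse 2), Rbm33 in 4 (without male control mouse 2 or 3 or female control mouse 1 or 3) and Luc7l2 in 3 (without male control mouse 2 or 3 or female control mouse 1). Of sinusoidal, stellate and Kupffer markers, 4 of 7, 4 of 5 and 7 of 7 passed as higher in females with control vectors, and the summed Kupffer markers ran from 414 to 458 FPKM in control females and from 197 to 279 in control males. The summed hepatocyte markers went the other way, from 1.56e+04 to 1.88e+04 in control females and from 2.11e+04 to 2.25e+04 in control males. Summed FPKM of the whole table per library ran from 281871 to 326460 in females and from 380206 to 429780 in males. The part of these sums in the sex differences was not tested. Of 12 clock genes, 4 were higher and 2 lower there, and over the 4 settings 5 were higher and 6 lower. Whether the 9 genes differ by sex within a cell type was not tested and cannot be told apart from cell numbers here.

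**Figure D4:**
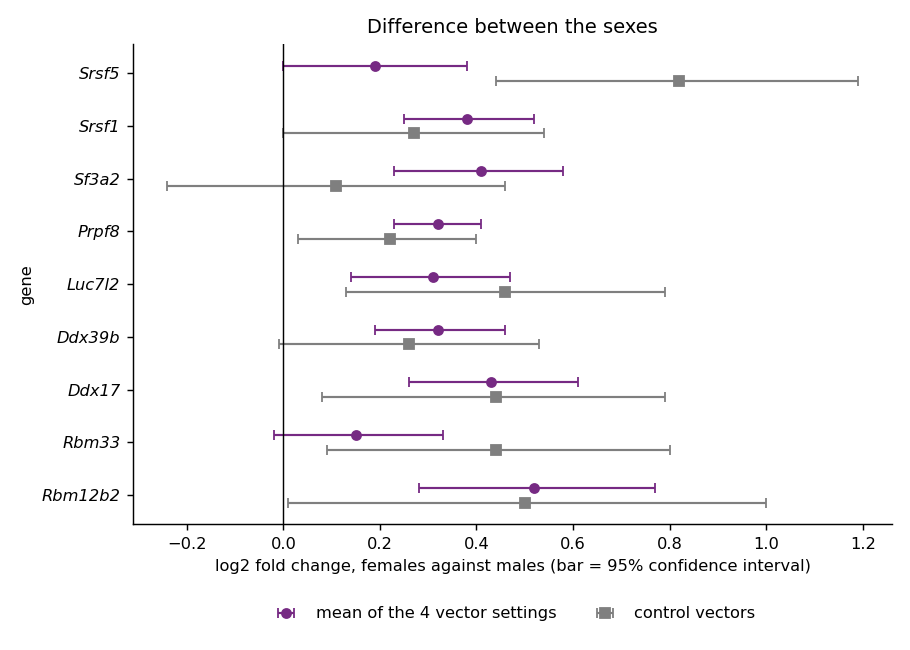
log2 fold change of females against males for the 9 genes (rows), with 95% confidence intervals, as the mean of the 4 vector settings (purple circles) and with control vectors (grey squares). With control vectors Srsf5 stands highest at 0.82, and over the 4 settings it is 0.19, while the other 8 genes lie between 0.15 and 0.52.

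Within groups the 9 genes mostly did not vary together. Over the 36 pairs, the correlation of deviations from the group means across 24 libraries had a median of 0.10 and a range from -0.40 to 0.74. Of the pairs, 8.33% were over 0.6, against 2.07% of all pairs of tested genes, and all 3 came from Ddx17, Luc7l2 and Rbm33. Ddx17 and Luc7l2 had r = 0.74 and rho = 0.69, and r = 0.60 without male AhR mouse 3 and female AhR mouse 2, the libraries farthest from the median. Ddx17 and Rbm33 had r = 0.71 and rho = 0.61, and r = 0.55 without the same libraries. Luc7l2 and Rbm33 had r = 0.64 and rho = 0.50, and r = 0.47 without male AhR mouse 3 and female AhR mouse 1. Among the listed splicing genes, Ddx17 was most like Pnisr, a serine and arginine rich nuclear protein (r = 0.87, rho = 0.89), and Srrm2, a scaffold of nuclear speckles (r = 0.79, rho = 0.71). These are descriptions, since all genes of a library share its depth and RNA quality, which are not known.

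In GENCODE M21, 3 of the 9 genes (Srsf5, Srsf1 and Luc7l2) have a transcript marked for nonsense-mediated decay and 6 have a retained-intron transcript, 33.3% and 66.7%. Over 2348 genes of the table found there the shares were 23.8% and 55.1%. Srsf5 has 12 annotated transcripts, of which 5 are coding, 1 is marked for decay and 3 retain an intron. FPKM per gene does not separate them, so a change in Srsf5 level could not be split by isoform here. Of the 100-base windows in Srsf5 transcripts, 13.9% also occur in the processed pseudogene Gm12966.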

How the data were processed

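Liver RNA of 24 mice in 8 groups of 3 was used, with groups taken from the labels and replicates numbered in the order of the samples. The deposited values are FPKM per the file headers, with 2 decimals, although the table was deposited under a name for raw counts. HISAT and Bowtie2 with GRCm38.p6 are named per the submitters' processing notes, with versions and counting not given in the sources used here. The libraries followed the sequencing provider's standard protocols, per the labels' protocols, and strand is not stated. How the 2372 genes of the table were chosen is not stated, so adjusted p-values hold within it. Read depth is unknown, and no counting interval is given.

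Values were tested as log2(FPKM + 0.5) with limma 3.58.1 in R 4.3.3, with a mean for each group, trend and robust moderation, on the 2299 genes that reached 1 FPKM in 3 or more libraries (73 left out), with 16 residual degrees of freedom over 16 comparisons and Benjamini-Hochberg adjustment over all genes tested. The pseudocount understates changes of low genes. The procedure was tested on simulated data. Alternatives were median-of-ratios scaling, pseudocounts of 0.1 and 1, no filter, a filter of 5 FPKM, weights per library, fits of only the compared groups, and leaving out each library. The members and gene lists were chosen with earlier results of these data known. Every member that passed in any comparison is named, with the 2 highest per family that passed in none; of other listed genes, at most 4 per list were named where a member passed too, lowest adjusted p first, and the genes most like Ddx17 and Hspa1b were named after their values were seen. Coordinates and transcripts are from GENCODE M21 (GRCm38) and promoter windows from RefSeq (GRCm38.p6).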

Additional observations from a re-analysis of the deposited data

Results flagged for a closer look

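Both results noted here concern Srsf5 and a difference between groups of the same contrast. The effect of the Kdm5 vectors on Srsf5 differed between the sexes, with a log2 difference of -1.18 for females minus males (limma adjusted p = 0.0291, up to 0.0801 in fits without 1 library): females had 102 ± 9.25 FPKM with control vectors and 51.8 ± 7.62 with the Kdm5 vectors, and males 57.8 ± 8.24 and 66.3 ± 4.92 (SD, 3 mice each). The effect of the Kdm5 vectors on Srsf5 in females also differed by the presence of the AhR vector, with an interaction of 1.25 (limma adjusted p = 0.0223, but 0.149 with the compared groups alone): without the AhR vector the change was -0.97, and with it 0.28. Both results use the 3 control females. Groups of 3 mice were too small for a search for single outlying mice.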

How the results depend on the processing

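Of 16 results in which a member passed, 9 kept their direction and call under each alternative run for them other than leaving out a library, 9 kept them in every fit without 1 library, and none reversed under any alternative run. Averages over the 4 vector settings use all groups and have no fit on the compared groups alone, and the filter of 5 FPKM does not test Rbm12b2 or Rbm33. The 9 in the second count are Srsf5 with the Kdm5 vectors in females (-1.08 to -0.87) and in females against males with control vectors (0.71 to 0.92), and the 7 genes that passed in females against males over the 4 vector settings.

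Fits on the compared groups alone, which use fewer libraries, left 0 passing members instead of 2 with the Kdm5 vectors in females (Srsf5 adjusted p = 0.0603), 0 instead of 1 with both sets in females, 0 instead of 1 for the interaction in females (Srsf5 adjusted p = 0.149), and 2 instead of 4 in females against males with control vectors. Median-of-ratios scaling gave 1 instead of 0 with the AhR vector in females, 2 instead of 1 with both sets in females, and 1 instead of 4 in females against males with control vectors. Library weights gave 1 with the AhR vector in females, 1 (Ddx39b) and 3 (Sf3a2, Ddx39b and Ddx17) for the Kdm5 vectors added to the AhR vector in females and males, 3 (Srsf1, Prpf8 and Ddx17) for the AhR vector added to the Kdm5 vectors in males, 3 with both sets in females, 2 (Srsf5 and Rbm33) for the Kdm5 effect in females minus males, and 2 (Luc7l2 and Ddx17) for the interaction in males. The cause of these changes was not tested.

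Without 1 library, the number of passing members was 1 in all 6 fits of the Kdm5 vectors in females, 0 to 1 for the Kdm5 vectors added to the AhR vector in each sex (1 without female AhR mouse 3, or without male mouse 1 of those with both sets), 0 to 1 with both sets in females, 0 to 2 for the Kdm5 effect in females minus males, 0 to 1 for the interaction in females, 1 to 5 in females against males with control vectors, and 7 to 9 over the 4 settings; elsewhere it was 0. The filter of 5 FPKM, which tested 1868 genes, kept 7 of the 9 members. No paired analysis was possible because the labels give no replicate numbers, and numbers in the order of the samples pair nothing. Depth is unknown, which limits what can be said of Rbm12b2 and Rbm33.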

Other observations

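In males, the interaction of both vectors passed for 0 of the 9 genes and for 2 of the 10 other splicing regulators. Both of these regulators were under 0 and were chosen after their values were seen. Pnn, a nuclear speckle protein of the exon junction, had 5.39, 4.05 and 4.96 FPKM with control vectors, 6.33, 7.51 and 8.65 with the AhR vector, 7.26, 5.99 and 6.96 with the Kdm5 vectors, and 5.56, 4.77 and 3.84 with both sets (interaction -1.07 ± 0.22, SE, limma adjusted p = 0.0158). Males with a single set were above all control males, and males with both sets overlapped the control males. Son had 14.04, 12.68 and 13.05 FPKM with control vectors and 13.09, 11.81 and 11.96 with both sets, against 14.01 to 18.03 with a single set (interaction -0.62 ± 0.15, adjusted p = 0.0346). The 10 regulators had a median interaction of -0.58 in males, against -0.08 over all genes tested, and 8 of them had an unadjusted p under 0.05, against 12.8% of all genes, while 1.61% of all genes passed.

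Over the 117 pairs of the 9 genes with 13 clock genes, the correlation of deviations within groups across 24 libraries had a median of 0.08. In 5 of the 117 pairs it was over 0.6, where 2.07% of all pairs of tested genes were. The highest were Luc7l2 with Per3 (r = 0.79) and Rbm33 with Nr1d2 (r = 0.75), picked from all 117 and not computed again without the farthest libraries. In 1 pair it was under -0.6, Srsf1 with Npas2 (r = -0.62). These are descriptions. The time of day at which livers were taken is not given in the sources used here.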
